A study of Mus musculus with 26 samples.

Results

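Polyadenylated RNA was sequenced from 26 libraries of mouse gastruloids with edits of the HoxB cluster. A gastruloid is a cultured ball of embryonic stem cells that lengthens and forms tissues of the trunk and tail. The comparison described here uses 4 of the 26 libraries, all with the library name ISML_second: the line InvDel7to10 at 120h and 144h after aggregation and the line InvClone1 at the same stages. Both lines carry Del/Del(i9-13) at HoxB, the insertion Ins(CBS5-10) and the inversion Inv(CBS5-10), and InvDel7to10 carries Del(CBS7-10) in addition. InvClone1 is clone 1 of the inverted cassette, whereas the labels give InvDel7to10 no clone number and do not say from which clone it was made, so the deletion and the history of a line cannot be told apart. The members were chosen by genotype, stage and library name, which are 1 library of InvDel7to10 at each stage, InvClone1 replicate 4 at 120h and InvClone1 replicate 2 at 144h. The title of the series names the insulation of Hoxb13 by CTCF as its subject, and the comparison asks how gene expression differs when CBS7-10 are removed from the inverted cassette.

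Hox genes encode transcription factors that give cells their position along the body axis, and the genes of a cluster are switched on in the order in which they lie. Hoxb13 stands at the far end of the HoxB cluster, is switched on last and is known in the mouse for limiting the length of the tail. CTCF binds DNA in an orientation-dependent way and, with cohesin, sets the ends of chromatin loops, so that bound sites between a gene and its neighbours can keep them apart.

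Hoxb13 was higher in InvDel7to10 than in InvClone1 at both stages. Of the genes at least 2-fold higher at both stages, only Hoxb13 was also higher against the other InvClone1 library at 144h. That library has another library name. At 120h the lines were close to each other beyond a few genes. The stem cell genes Pou5f1, Dppa5a and L1td1 were lower in InvDel7to10 at both stages. Most of the difference at 144h was found in 1 library, InvClone1 replicate 2, which stood apart from every other ISML_second library. No gene of 16043 passed the test of the line contrast with edgeR (quasi-likelihood F-test with Benjamini-Hochberg adjustment; 0% called, smallest adjusted p = 0.347), and 2287 genes had an unadjusted p under 0.05 (942 higher and 1345 lower).

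The libraries were of like depth, with total counts between 19942377 and 25411986 in the 4 compared libraries. Of all counts, 0.0864% were mitochondrially encoded in InvClone1 replicate 2 at 144h, against 0.587 to 1.51% in the other 25 libraries. In this library 222 genes were at least 2-fold above, and 230 at least 2-fold below, all of the other 9 ISML_second libraries, a number that did not exceed 16 in any of those 9. It differed by at least 2-fold from each other line at 144h in 1018 to 1204 genes, whereas the other pairs of lines at 144h differed in 22 to 251 genes. At 120h InvDel7to10 and InvClone1 differed in 14 genes, the smallest number of the 10 pairs at that stage, which ran to 55. Values at 144h are therefore set beside InvClone1 replicate 1 at 144h, which has the library name ISML_third. The main results are also given without replicate 2. In the fit of ISML_second libraries that leaves replicate 4 at 120h as the only InvClone1 library. Such values therefore rest on 120h for InvClone1 and cannot speak of its level at 144h. A difference of line from replicate 1 cannot be told apart from one of library name. At 120h InvClone1 replicate 1 (ISML_third) and replicate 4 (ISML_second) had 31.6 and 54.2 CPM of Hoxb3, and 428 and 203 CPM of Zdbf2. Hoxb13 was close in them, with 0.341 and 0.429 CPM. In bulk RNA, fewer cells of a type and less RNA per cell cannot be told apart.

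**Figure D1:**
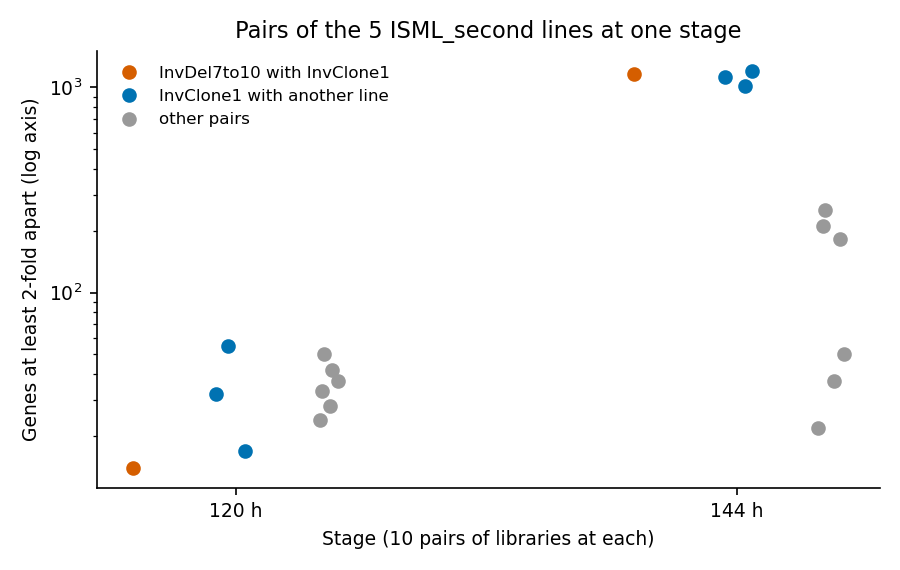
Number of genes at least 2-fold apart (log axis, on CPM plus 1) between 2 of the 5 ISML_second lines at one stage, 1 point for each pair of libraries. At 144h the 4 pairs with InvClone1 reached 1018 to 1204 genes and the other pairs 22 to 251, while at 120h the pair of InvDel7to10 and InvClone1 was the lowest of 10, with 14 genes.

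Hoxb13 lies on chromosome 11 from 96194316 to 96197447 (mm10). Hoxb13 had 5.14 CPM (its count scaled to the library's adjusted total) in InvDel7to10 at 120h and 4.88 CPM at 144h, from 107 and 104 counts. In InvClone1 it had 0.429 CPM at 120h and 0.923 CPM at 144h, from 11 and 17 counts. The libraries of the lines did not overlap, and neither did their exact 95% Poisson intervals (3.99 CPM as the lowest lower bound in InvDel7to10 and 1.48 CPM as the highest upper bound in InvClone1). The ratio of Hoxb13 CPM was 12.0 at 120h and 5.29 at 144h. In the fit of the 10 ISML_second libraries the log2 fold change of Hoxb13 was 2.94 ± 0.49 (SE), with an adjusted p of 0.347 with edgeR. DESeq2 on the same libraries gave 2.93 with an adjusted p of 5.11e-05, and edgeR on the 4 compared libraries alone gave 2.95 with an adjusted p of 6.33e-06, from 1 residual degree of freedom. Without InvClone1 replicate 2 at 144h the Hoxb13 log2 fold change was 3.75 ± 0.60 (edgeR adjusted p = 0.206). Over 19 other settings the value lay between 2.22 and 3.99, positive in all 19 and past the threshold in 3.

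The other libraries of the inverted cassette bear on the same gene. The 8 libraries of InvClone1, at 96h to 168h, and the 2 of InvClone2 held 0.167 to 1.06 CPM of Hoxb13, and both InvDel7to10 libraries were above all 10 of them. InsDel7to10, which carries Ins(CBS5-10) without the inversion and the same Del(CBS7-10), had 4.78 and 2.34 CPM at 120h. These values and those of InvDel7to10 were of the same order, but their library names differ and the difference was not tested. InsDel8to10 had 0.631 CPM at 120h and 1.07 CPM at 144h, and Ins 0.285 to 1.14 CPM over 4 libraries. Both InvDel7to10 libraries were below InsDel5to10, with 22.03 and 37.5 CPM, and below Del, the line with neither cassette nor inversion, with 16.3 to 89.2 CPM over 4 libraries. The Hoxb13 contrast minus that of InsDel8to10 against Ins, the other pair of ISML_second lines that differ by a deletion in the cassette, was 1.63 ± 0.87 on the log2 scale (edgeR adjusted p = 0.725). The change of the Hoxb13 contrast from 120h to 144h was -0.56 ± 0.97 on the log2 scale (edgeR over 26 libraries, adjusted p = 0.960).

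**Figure D2:**
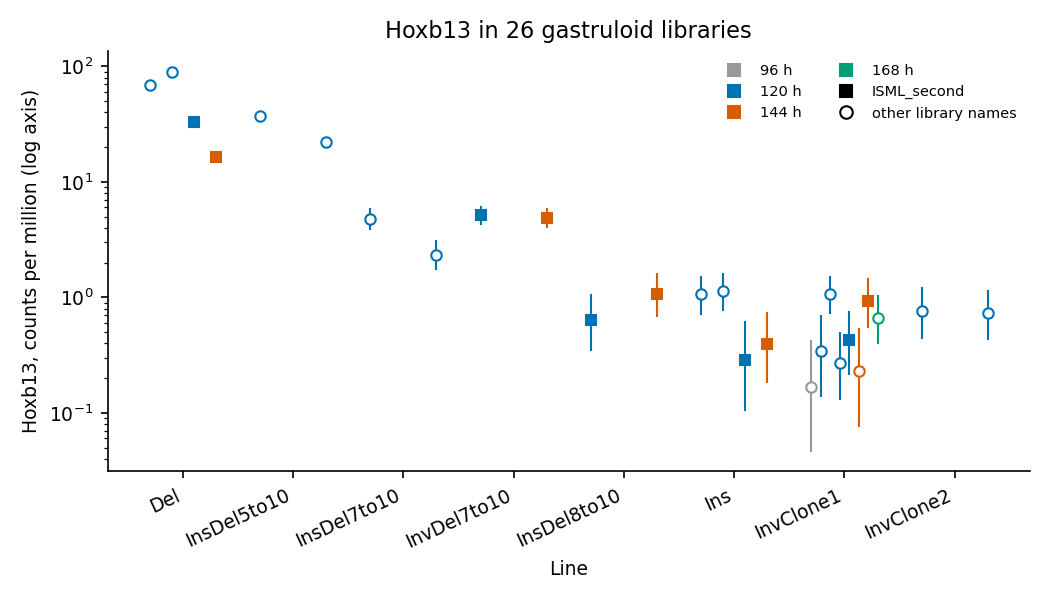
Hoxb13 in CPM (log axis) in each of 26 libraries by line, coloured by hours after aggregation. Filled squares are ISML_second libraries, open circles the others, and bars exact 95% Poisson intervals, which cover counting error only. Both InvDel7to10 libraries, at 5.14 and 4.88, lie above the 10 libraries of InvClone1 and InvClone2 and below those of InsDel5to10 and Del.

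The rest of the HoxB cluster did not pass the test in either direction. At 120h, Hoxb1 to Hoxb9 in InvDel7to10 were 0.857 to 1.05 times their CPM in InvClone1, so that Hoxb13 alone of the 10 genes was 2-fold apart. Hoxb9, the nearest HoxB gene to Hoxb13, had 156 CPM in InvDel7to10 and 173 CPM in InvClone1 at 120h, and 249 against 214 CPM at 144h. Hoxb9 had a log2 fold change of 0.04 ± 0.13 (edgeR adjusted p = 0.884). The libraries of the lines overlapped in 7 of these 9 genes and did not in Hoxb4 (lower) and Hoxb8 (higher), beside 17.4% of all genes not overlapping and lower and 16.3% not overlapping and higher. Per length of transcript, Hoxb13 stayed far below its neighbour: the deposited FPKM was 1.92 for Hoxb13 and 48.1 for Hoxb9 in InvDel7to10 at 120h, and 1.66 against 79.2 at 144h.

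At 144h most HoxB genes differed more between InvDel7to10 and InvClone1 replicate 2, the library that stood apart. In Hoxb1, Hoxb2, Hoxb3, Hoxb5, Hoxb6 and Hoxb8, InvDel7to10 was above both InvClone1 libraries at 144h. In Hoxb9 it was above replicate 2 only, and in Hoxb4 and Hoxb7 above replicate 1 only. Replicate 1 has another library name, which cannot be told apart from line here. Hoxb3, an anterior member, had 54.1 CPM in InvDel7to10 at 144h, with 31.7 CPM in InvClone1 replicate 1 and 26.1 CPM in InvClone1 replicate 2. Its log2 fold change was 0.48 ± 0.25 with that library and 0.05 ± 0.11 without it (edgeR adjusted p = 0.360 and 0.952). Hoxb4 had 15.2 CPM in InvDel7to10 and 24.4 CPM in InvClone1 replicate 2 at 144h, with 23.6 and 24.3 CPM at 120h, and its log2 fold change was -0.35 ± 0.17 with that library and -0.16 ± 0.14 without it (edgeR adjusted p = 0.353 and 0.860). InvClone1 replicate 1 at 144h had 7.65 CPM of Hoxb4, below InvDel7to10. The log2 fold changes of Hoxb1 to Hoxb9 ran from -0.36 (Hoxb7) to 0.48 (Hoxb3), and the smallest of their adjusted p-values was 0.353 with edgeR. Within 1 Mb of Hoxb13 there were 49 genes tested, and edgeR called none in the fit of 10 libraries. In other fits that held both compared InvClone1 libraries Hoxb13 passed, as given above. So did Cdk5rap3 at 144h in the fit of 26 libraries (log2 fold change -1.13 ± 0.16, edgeR adjusted p = 0.0343). The fit without InvClone1 replicate 4 at 120h has only the library that stood apart for InvClone1. The log2 fold change there was 1.04 for Hoxb3 and -0.53 for Hoxb4. The listed neighbours of the cluster summed to 3431 CPM in InvDel7to10 and 3340 CPM in InvClone1 at 120h, and to 3580 against 3980 CPM at 144h. Of 25 neighbours tested, 14 had their highest ISML_second value in InvClone1 replicate 2, among them Cdk5rap3 with 138 CPM there against 58.8 to 65.2 CPM in the other 9. Without that library its log2 fold change was -0.096 ± 0.080 (edgeR adjusted p = 0.843 over the remaining 9).

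No gene of the other Hox clusters passed. The 11 listed Hox genes of the posterior groups, of which 6 were tested and 0 called, summed to 11.1 CPM in InvDel7to10 and 12.2 CPM in InvClone1 at 120h, and to 70.9 and 65.9 CPM at 144h. The sums were higher at 144h in both lines. The median log2 fold change of the posterior list was -0.085 over 6 genes and 1.64 over 7 without InvClone1 replicate 2 at 144h, where Hoxa11 had 4.65 ± 2.09 (edgeR adjusted p = 0.629) from levels at 120h of 0.0481 CPM in InvDel7to10 and 0 in InvClone1. Hoxc10, the most abundant of them at 144h, had 44.6 CPM in InvDel7to10 and 36.2 CPM in InvClone1 at 144h, and 7.21 and 7.69 CPM at 120h. Of the 18 anterior and trunk Hox genes 0 were called, with a median log2 fold change of 0.13 beside 0.00038 over all genes.

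Across all genes the differences at the stages were of unlike size. The SD over genes of the log2 difference (on CPM plus 1, with no test at a single stage, since each line has 1 library there) was 0.209 at 120h and 0.573 at 144h. At 120h, 3 genes were at least 2-fold higher in InvDel7to10 (0.0187% of those tested) and 11 at least 2-fold lower (0.0686%). At 144h the numbers were 494 higher (3.08%) and 663 lower (4.13%). Of the 16043 genes, 9102 had the same sign at both stages and 6941 the opposite sign. At least 2-fold in the same direction at both stages were 3 higher genes (0.0187%), Hoxb13, Sema3d and Zc3h11a, and 5 lower genes (0.0312%), Pou5f1, Dppa5a, L1td1, Dkk1 and Gm15564. No gene was 2-fold apart at both stages in opposite directions. At 1.5-fold the list held 75 genes, 22 higher and 53 lower. No overlap between the libraries of the lines was seen for 2618 higher genes (16.3%) and 2785 lower genes (17.4%).

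**Figure D3:**
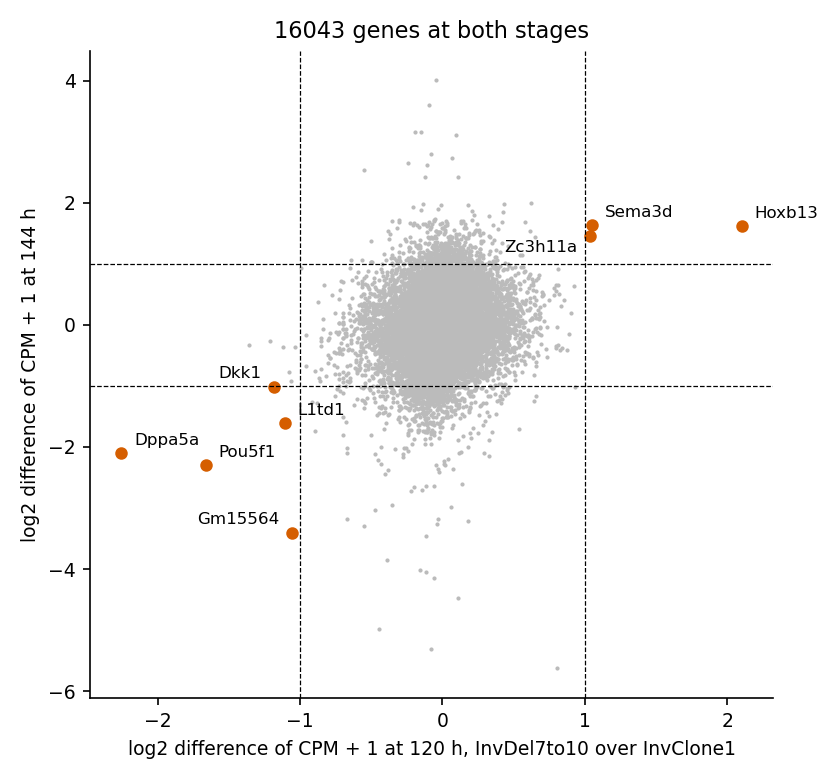
Log2 difference of CPM plus 1 between InvDel7to10 and InvClone1 for 16043 genes at 120h (x axis) and 144h (y axis), 1 library of each line at each stage. Dashed lines mark 2-fold, and the 8 named points are the genes at least 2-fold apart in the same direction at both stages. The cloud is wider at 144h, where the SD over genes was 0.573 against 0.209 at 120h.

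Sema3d, which encodes a secreted guidance protein of the semaphorin family, had 16.2 CPM in InvDel7to10 and 7.30 CPM in InvClone1 at 120h. At 144h Sema3d had 57.3 CPM in InvDel7to10 and 17.8 CPM in InvClone1 replicate 2. InvDel7to10 was the higher line at each stage, while its 120h library lay below the 144h library of InvClone1. The log2 fold change of Sema3d was 1.42 ± 0.23 (edgeR adjusted p = 0.347), and DESeq2 gave an adjusted p of 5.11e-05. InvClone1 replicate 1 at 144h, however, held 62.9 CPM of Sema3d, above InvDel7to10, and the other 22 libraries ranged from 1.13 to 62.9 CPM. Both InvDel7to10 libraries were thus inside the range of the same genotype without the deletion.

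Zc3h11a, a zinc finger gene, had 6.73 CPM in InvDel7to10 and 2.77 CPM in InvClone1 at 120h, and 3.10 against 0.489 CPM at 144h. The counts behind the 144h value in InvClone1 were 9. Both InvClone1 libraries lay below Ins, InsDel8to10 and Del of the same library name, at 4.02 to 5.05 CPM, while InvClone1 replicate 1 at 144h had 4.31 CPM, above InvDel7to10. In the deposited FPKM the same gene had 29.0 and 28.2 at 120h and 25.04 and 23.6 at 144h, in InvDel7to10 and InvClone1 in turn, so the difference was in the counts and not in the FPKM. The gene shares its locus with Zbed6, and the counts of overlapping genes are uncertain.

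Pou5f1, which encodes the stem cell factor Oct4, had 0.961 CPM in InvDel7to10 and 5.19 CPM in InvClone1 at 120h. At 144h Pou5f1 had 1.97 CPM in InvDel7to10 and 13.6 CPM in InvClone1. Both InvDel7to10 libraries were below both InvClone1 libraries, with a log2 fold change of -2.63 ± 0.49 (edgeR adjusted p = 0.347, DESeq2 adjusted p = 0.000502). Dppa5a, an RNA-binding protein gene of pluripotent cells, had 0.577 against 6.52 CPM at 120h and 2.11 against 12.3 CPM at 144h. L1td1, another RNA-binding protein gene of stem cells, had 0.625 against 2.50 CPM at 120h and 1.17 against 5.65 CPM at 144h. The log2 fold changes were -2.82 ± 0.54 for Dppa5a and -2.13 ± 0.42 for L1td1, neither past the threshold with edgeR. Without InvClone1 replicate 2 at 144h the log2 fold changes were -1.91 for Pou5f1, -2.49 for Dppa5a and -1.57 for L1td1 (edgeR adjusted p = 0.231, 0.521 and 0.324). Against InvClone1 replicate 1 at 144h, which held 9.42 CPM of Pou5f1, 30.3 CPM of Dppa5a and 8.35 CPM of L1td1, the 144h library of InvDel7to10 was also lower in all 3. Dppa5a has near-identical copies in the genome, so its counts are uncertain.

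The same genes separated the ISML_second lines in another way. Pou5f1 had 6.51 and 9.03 CPM in Ins, 1.08 and 0.607 CPM in InsDel8to10, and 1.33 and 0.842 CPM in Del, at 120h and 144h in turn. InvClone1 and Ins were therefore the high lines, and InvDel7to10, InsDel8to10 and Del the low ones, in all 10 libraries. In Dppa5a the order was the same, with 6.52 to 12.3 CPM in InvClone1 and Ins and 0.577 to 2.11 CPM in the other 3 lines. The contrast of InvDel7to10 against InvClone1 minus that of InsDel8to10 against Ins was 0.52 ± 0.72 for Pou5f1 and 0.46 ± 0.77 for Dppa5a on the log2 scale (edgeR adjusted p = 0.808 and 0.840). Over the other library names Pou5f1 ranged more widely, from 0.0996 CPM in an InsDel7to10 library to 66.5 CPM in InvClone1 at 96h. Under ISML_first the order of Ins and Del was turned. There Pou5f1 had 2.34 and 1.85 CPM in Ins and 3.05 and 5.29 CPM in Del at 120h. Replicates of a line also differed, with 0.629 and 8.35 CPM of Pou5f1 and 0 and 26.1 CPM of Dppa5a in InsDel5to10 at 120h.

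**Figure D4:**
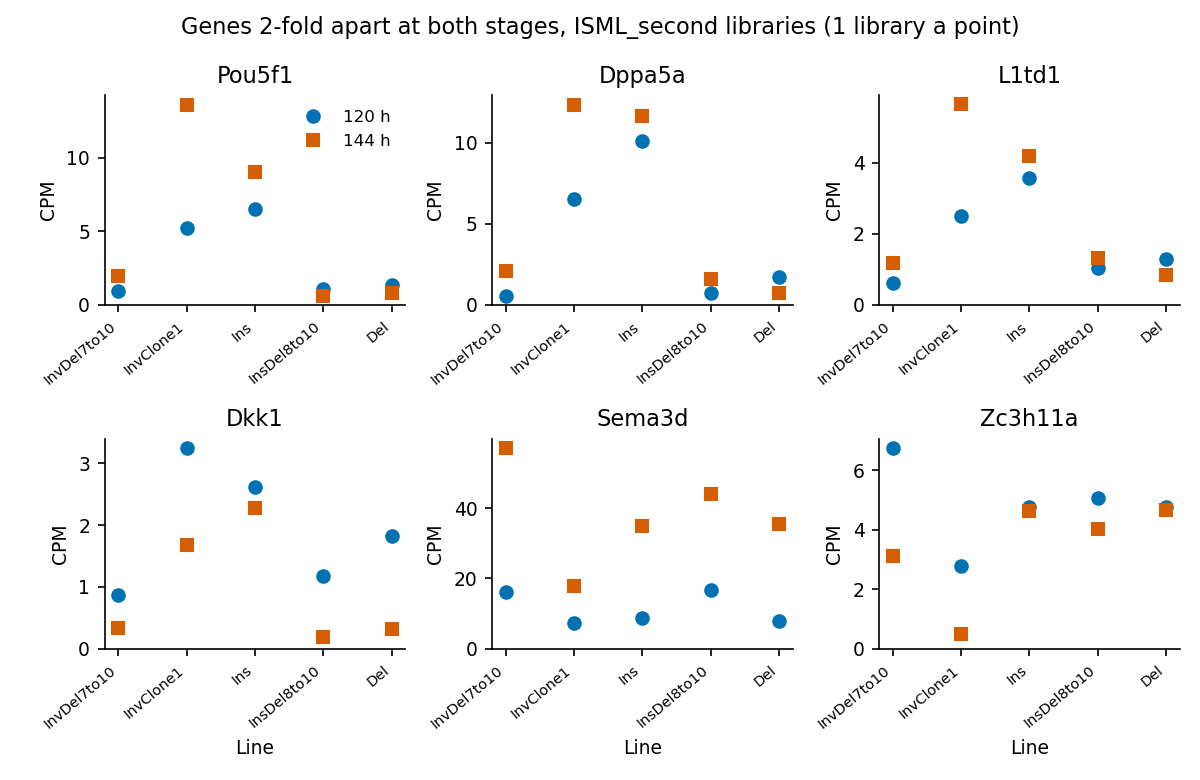
CPM of 6 genes that were at least 2-fold apart in the same direction at both stages, in the 10 ISML_second libraries (circles 120h, squares 144h, 1 library a point, axes from 0). Pou5f1, Dppa5a and L1td1 were high in InvClone1 and Ins and low in the other 3 lines, and Zc3h11a was low in InvClone1.

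Dkk1, a secreted inhibitor of Wnt signalling, had 0.865 CPM in InvDel7to10 and 3.24 CPM in InvClone1 at 120h, and 0.328 against 1.68 CPM at 144h. The log2 fold change of Dkk1 was -2.09 ± 0.58 (edgeR adjusted p = 0.347). InvClone1 replicate 1 at 144h had 0.186 CPM of Dkk1, below InvDel7to10. Gm15564, a predicted gene, had 1.49 against 4.18 CPM at 120h and 4.22 against 54.1 CPM at 144h, where InvClone1 replicate 2 was far above the other ISML_second libraries, at 1.49 to 7.35 CPM. The other 6 InvClone1 libraries held 12.9 to 79.4 CPM of Gm15564, and the 144h library of InvDel7to10 lay just above InvClone1 replicate 4 at 120h, so the lines overlapped.

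Of the 20 listed pluripotency and germ cell genes, 17 were tested and 0 called, and 7 had an unadjusted p under 0.05, all lower. Over all genes, against which this and the later counts of lists are to be read, 1345 of 16043 were lower and 942 higher at that p. Their median log2 difference was -0.56 at 120h and -0.41 at 144h, beside -0.0059 and 0.0046 over all genes. The summed level was 27.9 CPM in InvDel7to10 and 54.3 CPM in InvClone1 at 120h, and 34.6 against 63.1 CPM at 144h. Nanog, a core stem cell factor, had 0.288 against 2.30 CPM at 120h and 0.797 against 1.25 CPM at 144h, with 6.87 CPM in InvClone1 replicate 1 at 144h. Klf4, another factor of the naive state, was close, with 5.72 against 5.43 CPM at 120h and 5.30 against 4.83 CPM at 144h. The list thus did not move as 1 block. Without InvClone1 replicate 2 at 144h, 8 of the 17 had an unadjusted p under 0.05, all lower, beside 517 of 16688 genes in that fit, and the median log2 fold change was -1.03. In the other 22 libraries the sum ran from 12.0 to 123 CPM, a range that holds all 4 values.

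Among the genes at least 1.5-fold apart at both stages, 4 developmental factors are named here after their values were seen. Of the listed presomitic genes, 17 were tested and 0 called, with a median log2 fold change of -0.12 and sums of 772 against 806 CPM at 120h and 455 against 408 CPM at 144h. T, the tailbud factor Brachyury, had 54.8 CPM in InvDel7to10 and 83.6 CPM in InvClone1 at 120h, and 14.3 against 24.9 CPM at 144h, where InvClone1 replicate 1 had 10.5 CPM. Msgn1, a factor of the presomitic mesoderm, had 4.33 against 7.34 CPM at 120h and 0.0469 against 0.923 CPM at 144h, from 1 and 17 counts, with 0 CPM in InvClone1 replicate 1 at 144h. Foxh1, which acts in Nodal signalling, had 7.74 against 13.5 CPM at 120h and 1.64 against 3.64 CPM at 144h, with 2.60 CPM in replicate 1. Among those higher, Zic1, a factor of the dorsal neural tube, had 3.08 against 1.64 CPM at 120h and 21.1 against 12.2 CPM at 144h, with 3.25 CPM in replicate 1. Against InvClone1 replicate 1 at 144h, 9 of the 22 higher and 31 of the 53 lower genes kept their direction, and 5 and 12 of them were still 1.5-fold apart. Both InvDel7to10 libraries lay outside the other 6 ISML_second libraries, in the direction of the difference, for 3 of the higher and 10 of the lower genes. Both InvClone1 libraries did so for 6 and 10.

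The genes with the smallest unadjusted p in each direction are given because no gene passed. They were picked from the same contrast and for no overlap between the lines. Their fold changes are therefore no estimate of the remaining differences. Higher in both InvDel7to10 libraries beside Hoxb13 were Mmut, Zdbf2, Igsf10, Pcdhb19, Zdhhc21, Kctd12, Mmp16, Lnpep and Dcaf12l1, with log2 fold changes of 0.50 to 0.86. InvClone1 replicate 1 at 144h was above the 144h library of InvDel7to10 in 6 of these 9 (Zdbf2, Pcdhb19, Zdhhc21, Kctd12, Mmp16 and Lnpep) and below it in Mmut, Igsf10 and Dcaf12l1. Mmut, a mitochondrial enzyme of propionate breakdown, had 69.6 against 47.1 CPM at 120h and 65.8 against 33.7 CPM at 144h, with 59.6 CPM in InvClone1 replicate 1 at 144h and 75.7 CPM in replicate 1 at 120h. Its log2 fold change was 0.76 ± 0.13 (edgeR adjusted p = 0.347, DESeq2 adjusted p = 0.00664), and 0.59 ± 0.09 without InvClone1 replicate 2 at 144h (edgeR adjusted p = 0.0647). Zdbf2, a paternally expressed imprinted gene, had 272 against 203 CPM at 120h and 324 against 215 CPM at 144h, while InvClone1 replicate 1 at 144h had 571 CPM. Mmp16, a membrane-bound matrix protease, had 18.7 against 11.4 CPM at 120h and 20.4 against 11.6 CPM at 144h. InvClone1 replicate 1 held 20.1 CPM of Mmp16 at 120h and 21.4 CPM at 144h, above InvDel7to10 at each stage.

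Lower in both InvDel7to10 libraries beside Pou5f1, Dppa5a and L1td1 were Wnt2, Pnma5, Cdkn2a, Mybpc3, Mir762, Tdh and Rftn1. Cdkn2a, which encodes inhibitors of the cell cycle, had 2.50 against 5.50 CPM at 120h and 1.31 against 6.68 CPM at 144h. Its log2 fold change was -1.68 ± 0.30 (edgeR adjusted p = 0.347, DESeq2 adjusted p = 0.00664), but InvClone1 replicate 1 at 144h held 1.44 CPM. Tdh, an enzyme of threonine breakdown that is high in mouse stem cells, had 0.529 against 1.52 CPM at 120h and 0.657 against 2.06 CPM at 144h, with 2.37 CPM in InvClone1 replicate 1 at 144h. Wnt2, which encodes a secreted signal, had 8.04 CPM and Mybpc3, a heart myosin-binding protein, 16.6 CPM in InvClone1 replicate 2 at 144h. InvClone1 replicate 1 at 144h had 0 counts of either. Ins at 144h, of the same library name as replicate 2, held 5.67 CPM of Wnt2 and 8.37 CPM of Mybpc3. Under other library names, InvClone1 held 6.23 CPM of Wnt2 at 96h, and 0.0974, 0 and 0.244 CPM in replicates 1 to 3 at 120h. At 120h Wnt2 had 17 counts in InvClone1 and 1 in InvDel7to10, and its log2 fold change was -6.95 ± 1.15 with InvClone1 replicate 2 at 144h and -5.79 ± 1.25 without it (edgeR adjusted p = 0.347 and 0.215). Mybpc3 had 0 counts in both InvDel7to10 libraries and 307 in the InvClone1 libraries, 306 of them in replicate 2 at 144h and 1 at 120h. Taking 3 counts over the group of InvDel7to10, its CPM over both stages was at least 97.9-fold higher in InvClone1. That bound rests on replicate 2 at 144h and does not describe 120h. Wnt2 had 1 count against 165 over both stages, 148 of the 165 in the same InvClone1 library. The ratio of CPM of InvClone1 to InvDel7to10 was 158, with an exact 95% counting interval of 27.9 to 6270.

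Heart muscle genes were high at 144h in the library that stood apart. The cardiac and lateral mesoderm list summed to 49.9 CPM in InvDel7to10 and 61.5 CPM in InvClone1 at 120h, but to 47.9 against 390 CPM at 144h. InvClone1 replicate 1 at 144h held 29.3 CPM, and the other 9 ISML_second libraries 41.1 to 244 CPM, the highest being Ins at 144h. Tnnt2, cardiac troponin T, had 1.501 CPM in InvDel7to10 at 144h, 122 CPM in InvClone1 replicate 2 and 1.72 CPM in replicate 1. Myh6, a cardiac myosin heavy chain, had 0.657, 64.7 and 0.371 CPM in the same libraries. Of 16 genes tested, 8 had an unadjusted p under 0.05, all lower, and 0 were called. Without the library it was 4, beside the same 517 of 16688. Myl4, an atrial myosin light chain, had 0.281 CPM in InvDel7to10 and 39.5 CPM in InvClone1 replicate 2 at 144h. In the fit of all 26 libraries Myl4 passed the threshold at 144h (log2 fold change -7.06 ± 0.76, edgeR adjusted p = 0.00595), and no gene passed there without that library.

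Other lists differed at 144h with the same library. The 13 mitochondrially encoded genes summed to 9116 CPM in InvDel7to10 and 10104 CPM in InvClone1 at 120h, and to 6109 against 764 CPM at 144h, with 9697 CPM in InvClone1 replicate 1 at 144h. Hypoxia and glycolysis genes summed to 8755 against 9855 CPM at 120h and 8460 against 15726 CPM at 144h, where InvClone1 replicate 1 had 8266 CPM. Ribosomal protein genes had sums of 17962 and 20135 CPM at 120h and 16267 and 23666 CPM at 144h, where InvClone1 replicate 1 had 14924 CPM. Collagens and laminins went from 3987 against 3696 CPM at 120h to 3443 against 5891 CPM at 144h, where replicate 1 had 2310 CPM. Replicate 1 was thus below InvDel7to10 in these 3 sums, the other way from replicate 2. The part of the low mitochondrial share of this library in these differences was not tested. Of the 663 genes at least 2-fold lower in InvDel7to10 at 144h, 601 had InvClone1 replicate 2 above all other ISML_second libraries, and 9 were also 2-fold lower against replicate 1. Of the 494 higher genes, 462 had it below all others, and 23 were also 2-fold higher against replicate 1.

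**Figure D5:**
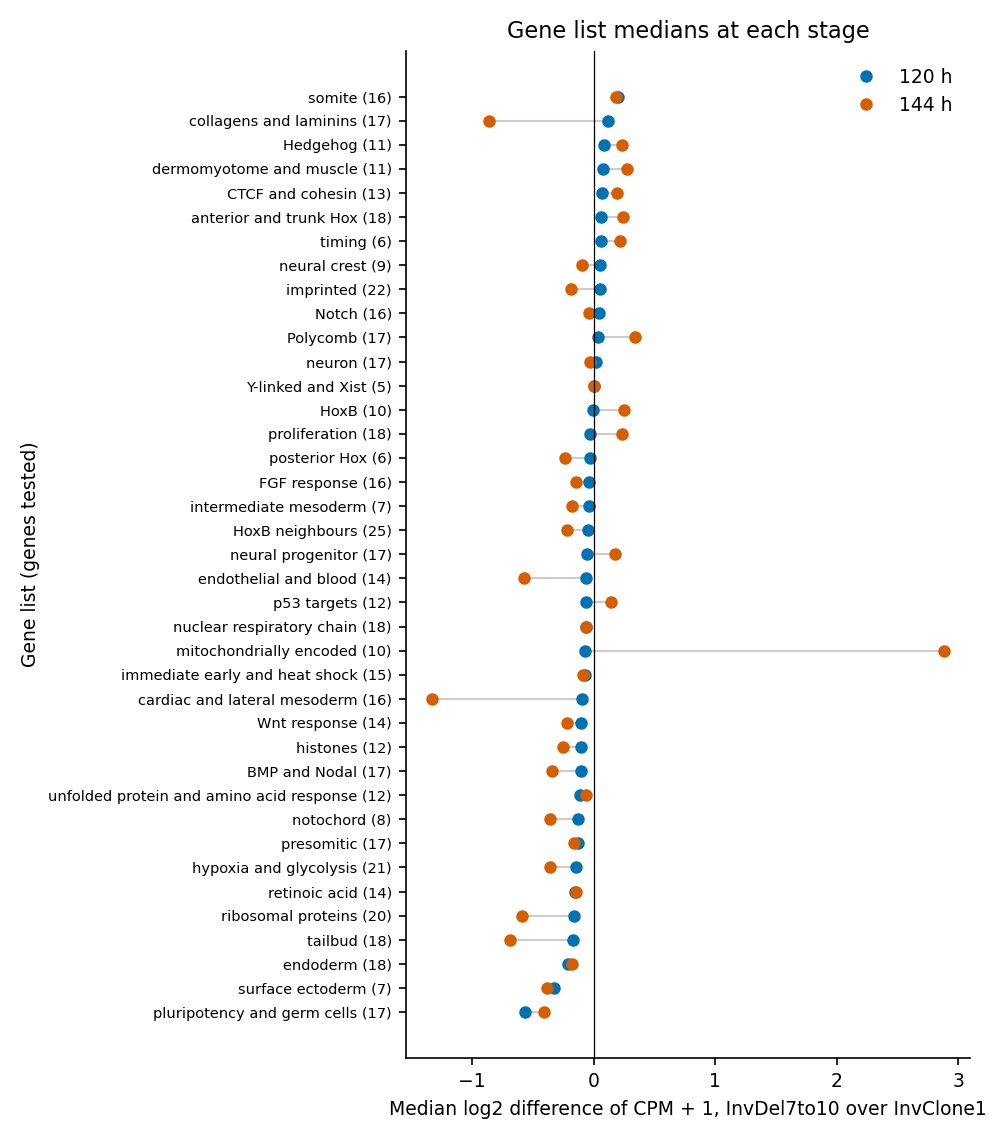
Median log2 difference of CPM plus 1 between InvDel7to10 and InvClone1 for 39 gene lists, at 120h and at 144h, with the number of genes tested in brackets. At 120h the lowest median was that of the pluripotency and germ cell list, at -0.56, and at 144h the mitochondrially encoded list (2.88) and the cardiac list (-1.33) lay farthest from 0.

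Among other tissue lists, the somite, tailbud and neural progenitor sums were close at 120h. Surface ectoderm genes had a median log2 difference of -0.32 at 120h, with 3 of 7 at an unadjusted p under 0.05, all lower. For notochord genes the median was -0.12 at 120h, with 3 of 8 at that p, all lower. At 144h InvClone1 replicate 1 was below InvDel7to10 in both sums, with 31.7 against 50.1 CPM and 21.3 against 55.2 CPM. Somite markers summed to 1495 CPM in InvDel7to10 and 1386 CPM in InvClone1 at 120h, and to 870 against 944 CPM at 144h, with 610 CPM in InvClone1 replicate 1 at 144h. Among the 16 somite genes Pax1, a marker of the sclerotome, had 71.0 against 39.8 CPM at 120h and 131 against 91.8 CPM at 144h (log2 fold change 0.67 ± 0.21, not called), with 57.8 CPM in InvClone1 replicate 1 at 144h. Tailbud genes summed to 1245 against 1311 CPM at 120h and 840 against 983 CPM at 144h, where replicate 1 had 774 CPM. Cdx1, a caudal factor, had 25.3 against 30.2 CPM at 120h and 3.7997 against 15.4 CPM at 144h, while InvClone1 replicate 1 at 144h had 2.13 CPM. Neural progenitor genes summed to 314 against 306 CPM at 120h and 1228 against 1533 CPM at 144h, where replicate 1 had 799 CPM. Endoderm genes summed to 488 against 577 CPM at 120h and 557 against 880 CPM at 144h, with 5 of 18 at an unadjusted p under 0.05, all lower. InvClone1 replicate 1 at 144h had 341 CPM of endoderm genes, which turns the 144h direction. Krt8, an epithelial keratin of that list, had 26.4 against 39.8 CPM at 120h and 51.4 against 105 CPM at 144h, with 14.9 CPM in InvClone1 replicate 1 at 144h. The 13 genes of CTCF and cohesin had a median log2 fold change of 0.17, with 5 at an unadjusted p under 0.05, all higher. Rad21, a cohesin subunit, had 494 against 447 CPM at 120h and 557 against 345 CPM at 144h, and 596 CPM in InvClone1 replicate 1 at 144h.

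Chromosome medians lay near each other at 120h and farther apart at 144h. The median log2 difference per chromosome at 120h lay between -0.022 (chromosome 8) and 0.017 (chromosome 18), and between -0.116 and 0.117 over windows of 20 Mb. At 144h the chromosome medians ran from -0.12 (chromosome 7) to 0.29 (chromosome X). In the line contrast, 68 of 538 genes on chromosome X were higher and 21 lower at an unadjusted p under 0.05. On chromosome 7 it was 47 higher and 149 lower of 1246, beside 942 and 1345 of 16043 over all genes. The median of chromosome X at 120h was 0.0082. Y-linked genes and Xist summed to at most 0.144 CPM in the 4 libraries, but to 80.8 to 167 CPM in the ISML_second libraries of Ins, InsDel8to10 and Del.

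The test of the change between the stages, in the fit of 26 libraries, called 0 of 17769 genes (0% called with edgeR; 813 at an unadjusted p under 0.05; DESeq2 called 1). The test of the difference from InsDel8to10 against Ins called 0 genes with edgeR, with 539 at an unadjusted p under 0.05. Separate cultures are not named in the labels. The p-values therefore speak only of the spread among the samples at hand, part of which may be technical. In the fit of 10 libraries each line had 1 library at each stage, so that spread is not one of replicates. The 4 residual degrees of freedom there hold how far the differences between lines changed with stage. The InvClone1 library that stood apart is part of that spread. Standard errors and adjusted p-values of that fit are to be read accordingly.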

How the data were processed

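Genotype, stage, replicate and library name were taken from the labels. The authors deposited whole-number read counts per gene, not normalized (55141 genes), and Cufflinks FPKM values (55138 genes), from which gene names and positions came; 3 identifiers had no name. The submitters' processing notes name the build mm10 and the tools Cufflinks 2.2.1, STAR 2.7.10a and cutadapt 1.18; the counting, its annotation and its use of strand are not given in these sources, so overlapping, antisense and near-identical genes are uncertain. In all, 8 columns matched no sample and were not used. The ISML kit (Illumina) served for most libraries, per the labels' protocols.

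Counts of the 10 ISML_second libraries (5 lines, 1 library at 120h and 1 at 144h each) were fitted in edgeR 4.0.16 in R 4.3.3 with line and stage as terms (TMM normalization, minimum count of 10, robust quasi-likelihood F-test, Benjamini-Hochberg adjustment over 16043 genes, threshold 0.05, 4 residual degrees of freedom). The change between stages came from all 26 libraries with terms for group and library name (8 residual degrees of freedom), with the spread of a lone library taken to be that of groups with replicates. CPM used TMM-adjusted library sizes on 1 scale, and per-stage differences are log2 of CPM plus 1. Total counts ran from about 18746400 to 37716500 over 26 libraries; in the 4 compared, 3 counts, the limit that a count of 0 allows, are 0.117 to 0.163 CPM. Intervals and floors hold counting error only: with no molecular identifiers, reads are not independent molecules. Only the edgeR line contrast in the fit of 10 libraries was tried on simulated counts. Those counts had the same dispersion for all genes, no stage effect and no library that stood apart, unlike these data.

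The libraries, the 39 gene lists and the alternatives were chosen with earlier results of these data known. Named were the 10 HoxB genes and, since fewer than 5 genes passed in a direction, the 10 with the smallest unadjusted p in each direction, averaging 1 CPM or more and not overlapping between lines, leaving out predicted models; other genes were named after their values were seen, by list, by their difference at both stages, or singly. No set test was run. Alternatives were DESeq2 1.42.0, limma-voom (limma 3.58.1), other size factors, filters, terms, sets of libraries, left-out libraries, folds and pseudocounts. 3 fits without InvClone1 replicate 2 at 144h were chosen after seeing the data.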

Additional observations from a re-analysis of the deposited data

Results flagged for a closer look

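Of 94 groups of libraries or measures examined for a library far from the others, 9 held one, and chance gives about 1 in 20 groups. The groups were the 5 ISML_second lines at a stage, for 4 library measures and 39 list sums, and the 4 InvClone1 libraries at 120h, for the 8 genes 2-fold apart at both stages, of which 0 stood out. InvClone1 replicate 2 was that library in 6 of the 8 cases at 144h. Its TMM factor was 0.924. It held 70.9 CPM of surface ectoderm genes, 15726 CPM of hypoxia and glycolysis genes and 23666 CPM of ribosomal protein genes, each the highest of the 5. Histone genes summed to 27.3 CPM and collagens and laminins to 5891 CPM in it, again the highest. The other 3 cases were in lines outside the comparison: Ins at 144h had 875 CPM of FGF response genes and 5341 CPM of proliferation genes, and InsDel8to10 at 120h 20.9 CPM of posterior Hox genes.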

How the results depend on the processing

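No paired analysis was possible because, by replicate number, the compared libraries (1 and 1 against 4 and 2) share fewer than 2. Stage, which pairs the libraries of the lines, was a term of every fit of 10 libraries but the one without it. The number of genes past the threshold, 0 in the fit of 10 libraries, was 14 with DESeq2 (5 higher, 9 lower), 2 with no filter, 33 in the 4 compared libraries alone (6 higher, 27 lower), 1 in the 26 libraries for the mean of the stages and 3 there at 144h. It was 0 with limma-voom. With 1 library left out it ran from 0 to 7380. The highest count came without InvClone1 replicate 4 at 120h, which leaves the library that stood apart as the only one of InvClone1. The Hoxb13 log2 fold change passed with DESeq2 (2.93), in the 4 compared libraries alone (2.95) and without InvClone1 replicate 4 at 120h (2.22), and with 1 library left out it ran from 2.22 to 3.75. The 8 genes 2-fold apart at both stages became 75 at 1.5-fold, 1 at 4-fold, 18 with a pseudocount of 0.5 CPM and 1 with 5 CPM. The gene left at 4-fold and with 5 CPM was Dppa5a, and Hoxb13 was not in the list in either setting. DESeq2 called 1 gene for the change between stages.

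Of Hoxb1 to Hoxb9 all but Hoxb8 changed sign in at least 1 setting, as did Kctd12, and the cause was not tested. These included Hoxb3, Hoxb4 and Hoxb7, which had the largest log2 fold changes of these genes in the fit of 10 libraries. In the 26 libraries at 120h Hoxb1 was -0.0096, Hoxb5 -0.0024 and Hoxb9 -0.19 on the log2 scale, and at 144h Hoxb6 was 0.20. Hoxb6 was 0.026 with no stage term, 0.14 without InvDel7to10 at 120h and 0.036 without InvClone1 replicate 4 at 120h, and Hoxb9 was -0.13 without InvDel7to10 at 144h. Without InvClone1 replicate 2 at 144h, Hoxb1 was -0.13, Hoxb2 -0.11, Hoxb7 0.11 and Hoxb9 -0.021. In the 26 libraries less that library, chosen after seeing the data, the mean of the stages was -0.13 for Hoxb1, -0.22 for Hoxb2, -0.014 for Hoxb3, 0.089 for Hoxb4, 0.021 for Hoxb6 and 0.20 for Hoxb7. At 144h it was -0.066 for Hoxb1, -0.34 for Hoxb2, -0.051 for Hoxb3, 0.22 for Hoxb4, 0.26 for Hoxb6, 0.33 for Hoxb7 and -0.35 for Kctd12. At 120h it was -0.20 for Hoxb1, -0.11 for Hoxb2, 0.065 for Hoxb7 and -0.15 for Hoxb9. None of these passed the threshold. Without InvClone1 replicate 4 at 120h, which leaves only the library that stood apart for InvClone1, Hoxb1 was 0.74, Hoxb2 0.30 and Hoxb7 -0.73. With 1 library left out these were the highest values for Hoxb1 and Hoxb2 and the lowest for Hoxb7. In the same fit Hoxb3 was 1.04 and Hoxb4 -0.53. At 3 counts a library, values under about 0.163 CPM are at the limit of the depth.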

Other observations

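At 120h, where neither compared library stood apart, the difference between the lines moved slightly with transcript length as estimated from the deposited counts and FPKM. With genes in 5 equal bins of length, the median log2 difference was -0.081 in the shortest bin and 0.094 in the longest, with the bins between in order. Ribosomal protein genes, which are short, had a median of -0.16 at 120h, and 15 of 20 had an unadjusted p under 0.05 for the line contrast, all lower, beside 1345 of 16043 genes. Without InvClone1 replicate 2 at 144h it was 11 of 20, beside 517 of 16688.

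Imprinted genes held 8 of 22 with an unadjusted p under 0.05, 6 higher and 2 lower, beside 942 higher and 1345 lower of 16043 genes. Peg10, a retrotransposon-derived gene, had 700 CPM in InvDel7to10 and 588 CPM in InvClone1 at 120h, and 1510 against 1067 CPM at 144h. Plagl1, a zinc finger factor, had 143 against 107 CPM at 120h and 321 against 210 CPM at 144h. H19, a maternally expressed RNA, went the other way at 144h, with 1245 against 3551 CPM, and was close at 120h, with 2695 against 2785 CPM. None of the 22 passed the threshold with edgeR, and InvClone1 replicate 1 at 144h had 1659 CPM of Peg10, 401 CPM of Plagl1 and 832 CPM of H19.

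Lin28b, a regulator of developmental timing, had 152 against 131 CPM at 120h and 168 against 109 CPM at 144h, and 198 CPM in InvClone1 replicate 1 at 144h.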
